A study of Mus musculus with 6 samples.

Results

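The circadian clock genes examined here are Clock, Npas2, Per1, Per2, Per3, Cry1, Cry2, Nr1d1, Nr1d2 and Dbp. They were chosen by gene symbol as core members and direct outputs of the clock, and all 10 were found among the 35976 genes listed. Brown adipose tissue (BAT) was profiled by RNA-seq in 3 WT and 3 sST2-KO mice, which were littermates from heterozygous crosses on a C57BL/6J background. The sST2-KO mice lack an intron of Il1rl1 that holds the stop codon of sST2, the soluble decoy form of the IL-33 receptor, in all tissues. Every mouse was a 10-week-old male whose BAT had been surgically denervated, that was kept at 30 °C for 7 days and that was then placed at 10 °C for 8 h, so the controls carry the denervation and the cold as well. The mice lived on a cycle of 12 h light and 12 h dark, and the sources used here do not give the time of day at which BAT was collected. Each group was therefore seen at 1 moment of the daily cycle per mouse, and a change in the level of a rhythmic gene cannot be told apart from a change in its timing.

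The clock is a loop of transcription that runs in nearly every cell. CLOCK, or its paralog NPAS2, pairs with BMAL1 (Arntl in the table) and switches on genes through E-boxes. Among these targets are the Per and Cry genes, whose proteins return to the nucleus and repress the pair, and Nr1d1 and Nr1d2, whose REV-ERB proteins repress Arntl, Npas2, Cry1 and Nfil3 through ROR elements. Dbp and its relative Tef act on D-boxes, where NFIL3 opposes them. In tissues, Dbp, Nr1d1, Nr1d2, Per3 and Tef therefore peak at another time of day than Arntl, Npas2 and Nfil3. In BAT, the REV-ERB proteins are known to restrain heat production at certain hours, and Per1 and Per2 also answer to cAMP and to glucocorticoids.

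Promoter stretches that hold such elements are shown for the members whose RefSeq start sites have them, since these elements tie the members to each other. RefSeq promoters, from 250 bases before to 50 bases after a start site, were found for 9 of the 10 members, all but Per2. They covered 12 start sites and were placed on GRCm39 by an exact match. Each stretch runs 5′ to 3′ on the strand of the gene, and capitals mark the elements. They are an E-box (CACGTG), an E-prime box (CACGTT, or AACGTG where it lies on the other strand) or a D-box (TTATGNAA).
Per1, chr11:68989589-68989778, plus strand: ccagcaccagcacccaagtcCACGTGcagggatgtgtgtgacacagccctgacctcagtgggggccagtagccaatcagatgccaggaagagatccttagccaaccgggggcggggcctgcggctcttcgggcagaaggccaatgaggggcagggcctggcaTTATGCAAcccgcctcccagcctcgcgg
Per3, chr4:151129253-151129347, minus strand: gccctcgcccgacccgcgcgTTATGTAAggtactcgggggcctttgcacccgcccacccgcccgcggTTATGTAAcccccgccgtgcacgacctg
Cry1, chr10:85020953-85021017, minus strand: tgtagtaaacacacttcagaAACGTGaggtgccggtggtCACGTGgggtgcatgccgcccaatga
Cry2, chr2:92264555-92264600, minus strand: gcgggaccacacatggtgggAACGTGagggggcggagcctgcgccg
Nr1d1, chr11:98666206-98666251, minus strand: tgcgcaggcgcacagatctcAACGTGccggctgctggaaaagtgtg

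The E-box of Per1 starts 166 bases and its D-box 24 bases before the start site. The D-boxes of Per3 start 205 and 158 bases before it. An E-box was present in 2 of the 12 member promoters (Per1 and Cry1) and in 7.15% of all 32851 promoters of this length. An E-prime box was present in 3 of the 12 (Cry1, Cry2 and Nr1d1) and in 4.68% of all promoters. A D-box was present in 2 of the 12 (Per1 and Per3) and in 3.38% of all promoters. Both strands were searched, and none of these elements overlapped another. The letters of a ROR element (TAGGTCA, 2.61% of all promoters) and of a cAMP response element (TGACGTCA, 1.79%) were in none of the 12 windows. A match of letters describes these windows and does not show that a factor was bound.

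The libraries held between 8159442 and 12874809 counts, of which the 10 members held 4970 to 8912 per library. BAT identity was checked with a list of 10 brown adipocyte markers. Their summed level was 8109 to 15390 CPM (counts scaled to library size by edgeR's TMM method) in WT mice and 359 to 1854 CPM in sST2-KO mice. Ucp1 alone had 5229 to 10520 CPM in WT and 153 to 1042 CPM in sST2-KO mice. At an adjusted p under 0.05, 6 of the 10 were lower and 1, Lhx8, was higher (log2 fold change 1.85). Prdm16 (log2 fold change -1.38), Ebf2 (-0.22) and Zic1 (0.68) were not called. Markers of all adipocytes summed to 20630 to 24520 CPM in WT and 6056 to 12530 CPM in sST2-KO mice (2 of 7 called lower). T cell markers summed to 6.81 to 10.1 CPM and to 64.6 to 91.5 CPM (4 of 5 called higher). Neutrophil markers summed to 30.6 to 131 CPM and to 141 to 684 CPM (2 of 5 called higher). Macrophage markers summed to 575 to 829 CPM in WT and to 1136, 1099 and 4996 CPM in sST2-KO mice (2 of 7 called higher). The groups overlapped for Csf1r, Mrc1 and C1qa. In sST2-KO replicate 3, 6.80% of counts were mitochondrial, against 11.8% to 16.6% in the other libraries. Over all genes tested, 10.5% were called higher and 9.1% lower. The sum of 10 skeletal muscle genes was 6.53 to 1297 CPM in WT mice and 3630 to 15680 CPM in sST2-KO mice. None of the 10 had groups that overlapped, but 0 were called by edgeR, 8 having an unadjusted p under 0.05. Of all 14542 genes tested, 41.5% had groups that did not overlap and 5269 had an unadjusted p under 0.05. WT replicate 2 alone held RNA of liver genes in quantity, with a sum of 4528 CPM over 6 genes, against 8.29 to 46.8 CPM in the other libraries. The part of these markers in the results below was not tested, and in bulk tissue fewer cells of a type and less RNA per cell cannot be told apart. Il1rl1 had 6 to 19 counts in WT and 55 to 142 counts in sST2-KO libraries, but its counts add up both forms of the receptor and do not check the genotype.

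None of the 10 clock genes passed the test between the groups. Of them, 9 were lower and 1 was higher in sign in sST2-KO BAT. Among all 14542 genes tested, 6975 were lower and 7567 were higher in sign. Of the 9, Cry2 was at a log2 fold change of -0.0010, and its sign turned with the scaling. The median of the members' log2 fold changes was -0.44 (quartiles -0.76 and -0.18). All genes tested had a median of 0.034 (quartiles -0.43 and 0.54). In the quasi-likelihood test of edgeR, adjusted by Benjamini-Hochberg, 0 of the 10 had an adjusted p under 0.05 and 0 had an unadjusted p under 0.05, and DESeq2 also called 0, with 1 under 0.05 unadjusted. Over all genes tested, 10.5% were called higher and 9.1% were called lower. The 3 sST2-KO values lay entirely on one side of the WT values for 2 members, Clock and Per1, where 41.5% of all genes tested had groups that did not overlap. Without WT replicate 1 the count of members called was 1, which was Npas2 (adjusted p = 0.0488).

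**Figure D1:**
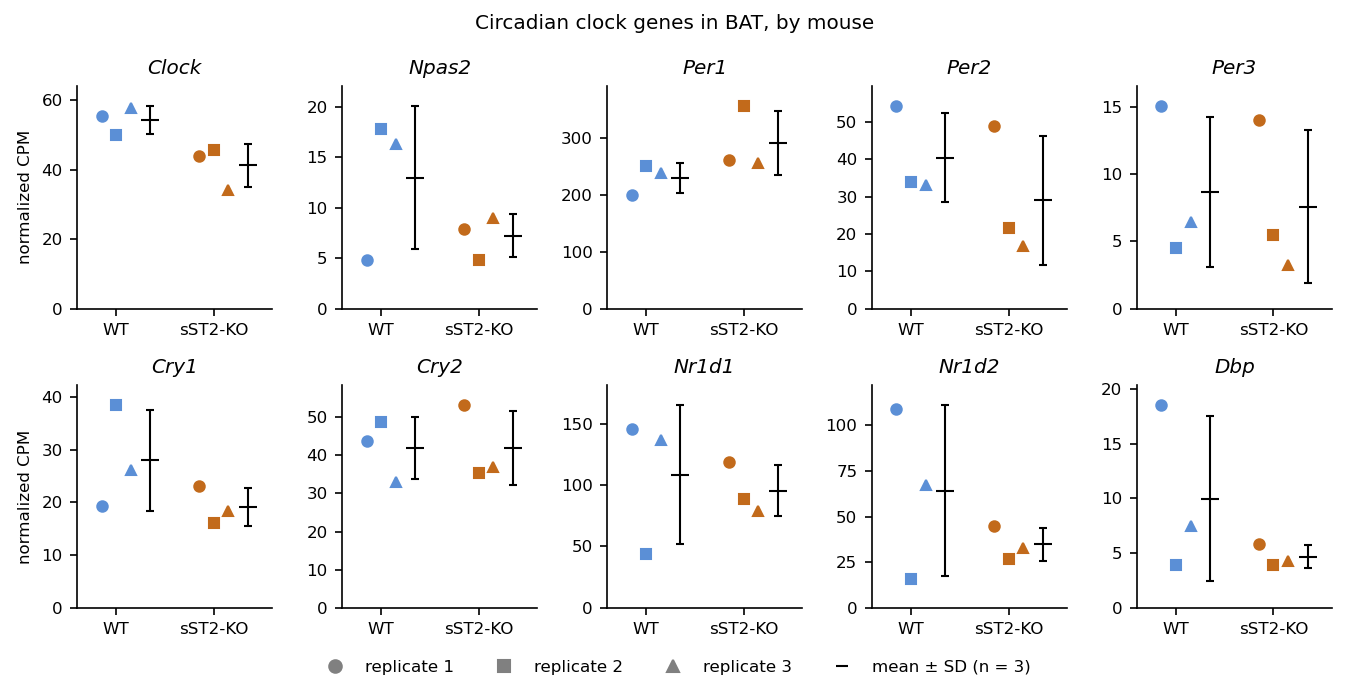
Normalized CPM (y axis, from 0, a scale for each gene) of the 10 clock genes in 3 WT and 3 sST2-KO mice, with a symbol for each replicate and the mean ± SD beside each group. The groups are apart only for Clock and Per1, and replicate 1 is the highest of its group in both genotypes for Per2, Per3, Nr1d1, Nr1d2 and Dbp.

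The activators were low to moderate in level and lower in sign in sST2-KO mice. Clock, on chromosome 5 of GRCm39 from 76342860 to 76452846, had 55.4, 50.04 and 57.7 CPM in the WT mice (in the order of replicates 1 to 3, as in all lists that follow) and 43.9, 45.8 and 34.2 CPM in the sST2-KO mice. Every sST2-KO mouse lay below every WT mouse, but the distance was small, with a log2 fold change of -0.40 (0.18 standard error, 95% interval -0.81 to 0.019, adjusted p = 0.154). Clock also varied least among WT mice of the 10 members, with a ratio of 1.15 between the highest and the lowest. It shares 2047 of its 17251 exon bases with Tmem165 on the opposite strand, which had 17.6 to 28.1 CPM in WT and 31.6 to 59.7 CPM in sST2-KO mice. Npas2, the paralog that can stand in for CLOCK, on chromosome 1 from 39232705 to 39402323, had 4.85, 17.8 and 16.3 CPM in WT and 7.88, 4.87 and 8.99 CPM in sST2-KO mice. WT replicate 1 was the lowest of the 6 mice, at nearly the level of sST2-KO replicate 2, while the other WT mice lay above all sST2-KO mice. Its log2 fold change was -0.83 (standard error 0.49, 95% interval -1.98 to 0.31, adjusted p = 0.264), and it rested on 41 to 189 counts per library. With alternatives and single libraries left out, the adjusted p of Npas2 ranged from 0.0488 to 0.551.

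The Per genes, which encode the repressors that CRY proteins accompany, did not move as a group. Per1, on chromosome 11 from 68986035 to 69002300, was the only member higher in sign, with 199.6, 251 and 239 CPM in WT and 261, 355.5 and 256 CPM in sST2-KO mice. All sST2-KO values of Per1 lay above all WT values, by 1.27-fold in the fit (log2 fold change 0.34, standard error 0.22, 95% interval -0.18 to 0.86, adjusted p = 0.311). Per2, on chromosome 1 from 91343700 to 91387069, had 54.2, 34.0 and 33.2 CPM in WT and 48.9, 21.5 and 16.8 CPM in sST2-KO mice. Replicate 1 was the highest mouse of Per2 in both groups, and sST2-KO replicate 1 lay above WT replicates 2 and 3. The log2 fold change of Per2 was -0.47 (standard error 0.41, 95% interval -1.44 to 0.49, adjusted p = 0.449), and without sST2-KO replicate 1 it was -1.08 (adjusted p = 0.0534). Per3, on chromosome 4 from 151081373 to 151129140, had the same shape, with 15.02, 4.52 and 6.41 CPM in WT and 14.0, 5.46 and 3.26 CPM in sST2-KO mice. Replicate 1 of each group was above all 4 other mice by more than 2-fold. The fitted log2 fold change of Per3 was -0.18 (standard error 0.63, 95% interval -1.64 to 1.28, adjusted p = 0.860), and it turned to 0.48 without WT replicate 1 and to 0.046 when libraries were scaled by total counts.

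The Cry genes encode the strongest repressors of the loop. Cry1, on chromosome 10 from 84967560 to 85021252, had 19.4, 38.4 and 26.1 CPM in WT and 23.1, 16.1 and 18.3 CPM in sST2-KO mice. WT replicate 1 sat inside the sST2-KO range, and the other WT mice sat above it. The log2 fold change of Cry1 was -0.54 (standard error 0.29, 95% interval -1.21 to 0.13, adjusted p = 0.216). Cry2, on chromosome 2 from 92233894 to 92264474, had 43.8, 48.8 and 33.0 CPM in WT and 53.0, 35.5 and 37.0 CPM in sST2-KO mice. Its groups overlapped throughout, with a log2 fold change of -0.0010 (standard error 0.23, 95% interval -0.54 to 0.54, adjusted p = 0.998). Its sign turned with the scaling, and the interval of Cry2 leaves room for a change in either direction.

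The REV-ERB genes and Dbp, like Npas2 and Per3, varied by more than 2-fold among WT mice, and their groups overlapped. Nr1d1, on chromosome 11 from 98658752 to 98666188, had 145, 43.8 and 136 CPM in WT and 119, 88.3 and 79.2 CPM in sST2-KO mice. WT replicate 2 was the lowest of the 6 mice and WT replicates 1 and 3 were the highest. Its log2 fold change was -0.19 (standard error 0.43, 95% interval -1.18 to 0.81, adjusted p = 0.785), and it was 0.077 with total counts. Nr1d1 shares 1694 of its 3242 exon bases with Thra on the opposite strand, a thyroid hormone receptor gene that had 91.7 to 102 CPM in WT and 61.0 to 93.2 CPM in sST2-KO mice. The use of strand in the counting is not given in the sources used here, so reads of this overlap cannot be assigned. Nr1d2, on chromosome 14 from 4230545 to 4266624, shares no exon base with another gene. It had 109, 15.7 and 67.2 CPM in WT and 44.7, 26.8 and 32.8 CPM in sST2-KO mice, so that all sST2-KO mice lay between WT replicate 2 and WT replicate 3. The log2 fold change of Nr1d2 was -0.88 (standard error 0.59, 95% interval -2.26 to 0.50, adjusted p = 0.323), and without WT replicate 2 it was -1.34 (adjusted p = 0.0538).

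Dbp, the D-box activator whose transcript swings widely over the day in many tissues, lies on chromosome 7 from 45354512 to 45359627. It had 18.5, 3.96 and 7.52 CPM in WT and 5.85, 3.92 and 4.25 CPM in sST2-KO mice, on 33 to 198 counts per library. WT replicate 1 stood above the other 5 mice, and WT replicate 2 lay within the sST2-KO range. Its log2 fold change was the most negative of the members at -1.09 (standard error 0.54, 95% interval -2.35 to 0.17, adjusted p = 0.192), and it ranged from -1.47 without WT replicate 2 to -0.29 without WT replicate 1. Dbp shares 539 exon bases with Sphk2 on the opposite strand, which had 38.0 to 40.4 CPM in WT and 26.2 to 40.6 CPM in sST2-KO mice.

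**Figure D2:**
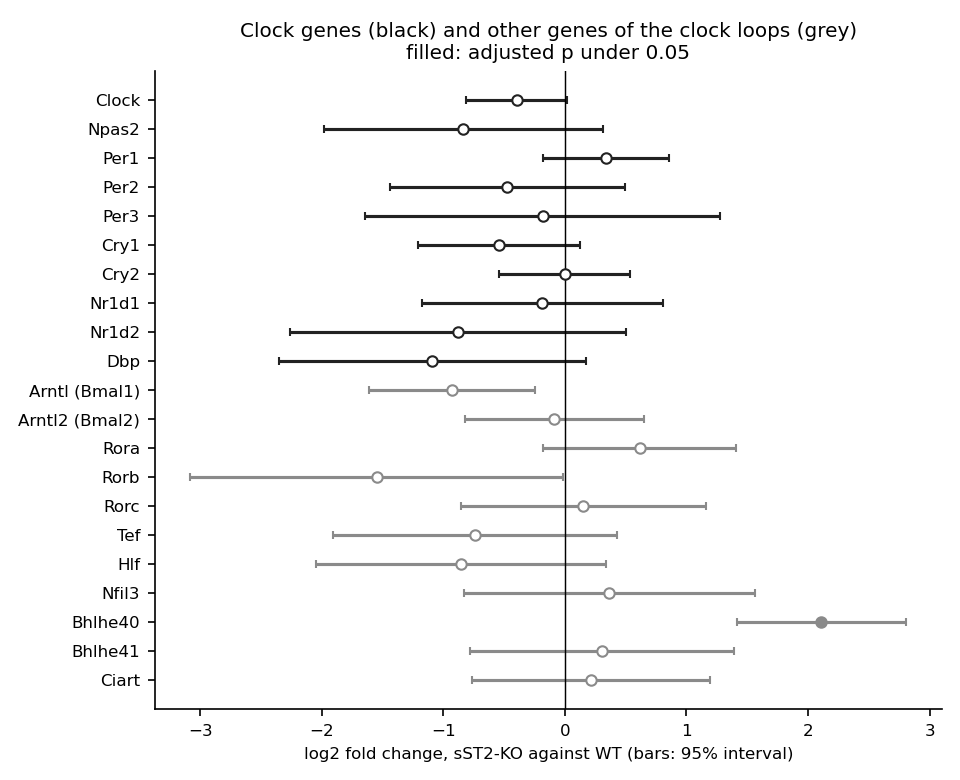
Log2 fold change of sST2-KO against WT (x axis, bars are 95% intervals) for the 10 clock genes in black and 11 other genes of the clock loops in grey, filled where the adjusted p was under 0.05. The intervals of all 10 members include 0, and Bhlhe40, at 2.11, is the only filled point.

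Nr1d1 and Per1 had the highest levels of the members and Per3 the lowest in both genotypes. Levels were set beside each other as CPM per kilobase of annotated exon. In WT mice Nr1d1 (33.5 ± 17.3 CPM per kb, SD, n = 3) and Per1 (30 ± 3.50) were at the top and did not differ beyond their spread. Nr1d2 (7.08 ± 5.17), Per2 (6.16 ± 1.81), Cry1 (5.62 ± 1.93) and Cry2 (4.88 ± 0.939) followed, each within the spread of its neighbor. Clock (3.15 ± 0.228) lay below Cry2 without overlap of their mice, and Dbp (2.88 ± 2.18) and Npas2 (2.37 ± 1.29) overlapped with Clock. Per3 was the lowest (0.825 ± 0.533), and its range overlapped with that of Npas2. In sST2-KO mice Per1 (38.0 ± 7.31) and Nr1d1 (29.4 ± 6.36) were again at the top, with overlapping values, and Per3 (0.722 ± 0.541) was again the lowest. Exons of genes that overlap and transcripts that are not used in BAT are part of these lengths, so the order is approximate.

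The mice of 1 group also differed from each other. The ratio of the highest to the lowest WT mouse had a median of 2.65 over the 10 members and of 1.49 over all genes tested. It was over 2 for 5 of the 10 members (Npas2, Per3, Nr1d1, Nr1d2 and Dbp), against 21.3% of all genes tested. In sST2-KO mice the median ratio was 1.5 for the members and 1.55 for all genes, and it was over 2 for 2 members, Per2 (2.91) and Per3 (4.30), against 29% of all genes tested. The difference in spread between the genotypes was not tested.

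The members did not differ among WT mice in the same direction, and paralogs could part. WT replicate 1 was the highest WT mouse for Per2, Per3, Nr1d1, Nr1d2 and Dbp, and the lowest for Npas2, Per1 and Cry1. Against WT replicate 2, its level was 6.94-fold for Nr1d2, 4.67-fold for Dbp and 3.32-fold for Nr1d1 and Per3, but 0.272-fold for Npas2 and 0.506-fold for Cry1. Clock (1.11-fold) did not share the low level of its paralog Npas2, and Per1 (0.796-fold) was low where Per2 (1.59-fold) and Per3 were high. Of the 11 other loop genes, 3 (Rora, Tef and Ciart) were higher and 8 lower in WT replicate 1 than in WT replicate 2. Of the relatives of Dbp, Tef was at 3.49-fold but Hlf at 0.643-fold, while Arntl was at 0.438-fold and Nfil3 at 0.246-fold. In sST2-KO mice, replicate 1 was the highest for 7 members, which included the 5 that were highest in WT replicate 1. Same-numbered mice were not shown to be paired: the correlations of their deviations from the group means over all genes were -0.058, 0.21 and -0.31. WT replicate 1 had the most muscle RNA of the WT mice (1297 CPM). Its 5 fibroblast markers summed to 5049 CPM, against 1584 and 1846 CPM in WT replicates 2 and 3. WT replicate 2 had the liver RNA given above, and the part of any of these in these differences was not tested.

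**Figure D3:**
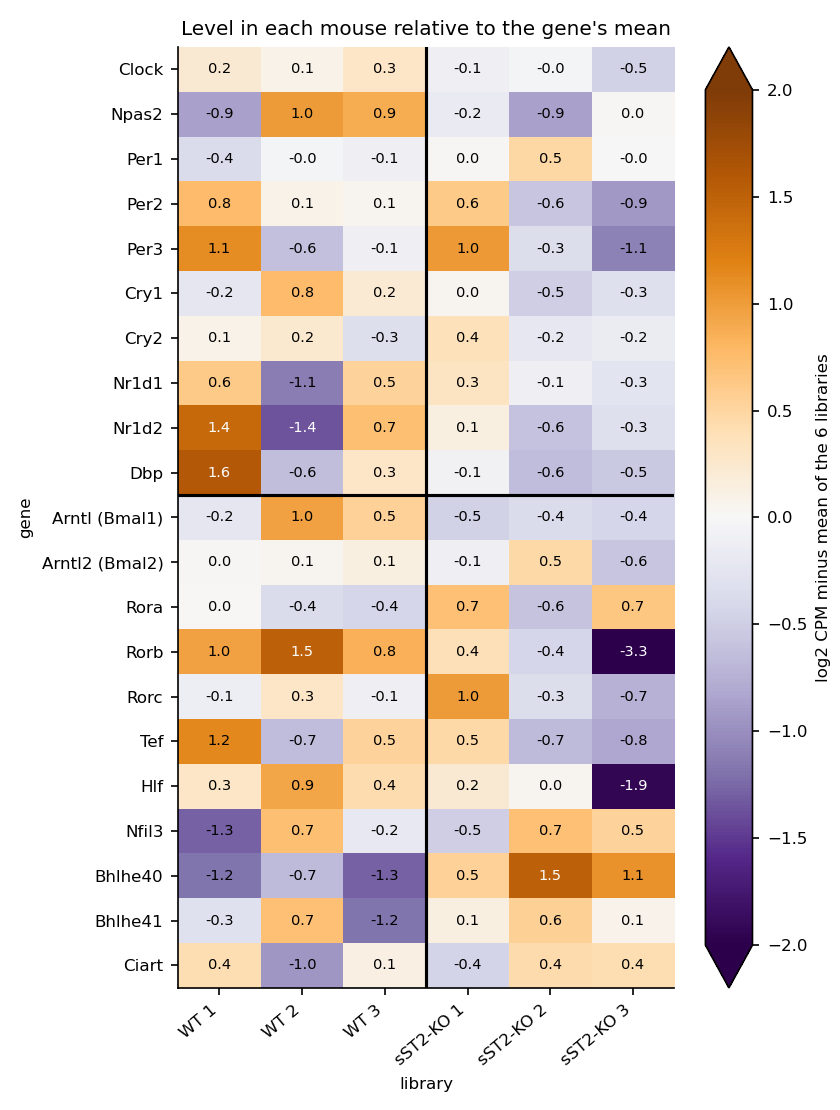
Log2 CPM of each library (columns) minus the mean of the 6 libraries (color and number) for the 10 clock genes and, under the black line, 11 other loop genes (rows). Values past the ends of the color scale have the end colors. In WT replicate 1 Dbp (1.59), Tef (1.15) and Nr1d2 (1.42) are high while Npas2 (-0.87) and Nfil3 (-1.29) are low, and in WT replicate 2 Dbp is at -0.63, Tef at -0.65 and Npas2 at 1.01.

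Ratios of genes within a library, which do not depend on how libraries are scaled, were compared for 8 pairs. The smallest p that the exact two-sided permutation test allows for groups of 3 is 0.1. No pair had groups that did not overlap, and the exact p values ran from 0.3 to 1, or from 0.8 to 1 after adjustment over the 8 pairs. Among paralogs, the log2 ratio of Per1 to Per2 was 1.88, 2.88 and 2.85 in WT and 2.42, 4.05 and 3.93 in sST2-KO mice. This was the largest difference between group means of the 8, at 0.93 (exact p = 0.3). The log2 ratio of Cry1 to Cry2 was -1.17, -0.35 and -0.34 in WT and -1.20, -1.13 and -1.02 in sST2-KO mice, so WT replicate 1 had the value of the sST2-KO mice. The ratio of Nr1d1 to Nr1d2 differed by 0.496, that of Per3 to Per2 by 0.33 and that of Npas2 to Clock by -0.27, each less than the WT mice differed among themselves.

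The ratios of Dbp or Nr1d1 to Npas2 or Arntl were spread widely in WT mice. The log2 ratio of Dbp to Npas2 was 1.92, -2.16 and -1.11 in WT and -0.43, -0.31 and -1.07 in sST2-KO mice. The WT values spanned 4.08 on the log2 scale and the sST2-KO values 0.76, and the means differed by -0.15 (exact p = 1). The log2 ratio of Dbp to Arntl was -0.34, -3.73 and -2.39 in WT and -1.76, -2.41 and -2.24 in sST2-KO mice, with means that differed by 0.017 (exact p = 1). That of Nr1d1 to Arntl was 2.64, -0.28 and 1.78 in WT and 2.58, 2.06 and 1.97 in sST2-KO mice, and without WT replicate 2 the difference of the means went from 0.82 to -0.0080. In each of these pairs WT replicate 1 was the highest and WT replicate 2 the lowest of the 6 mice.

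**Figure D4:**
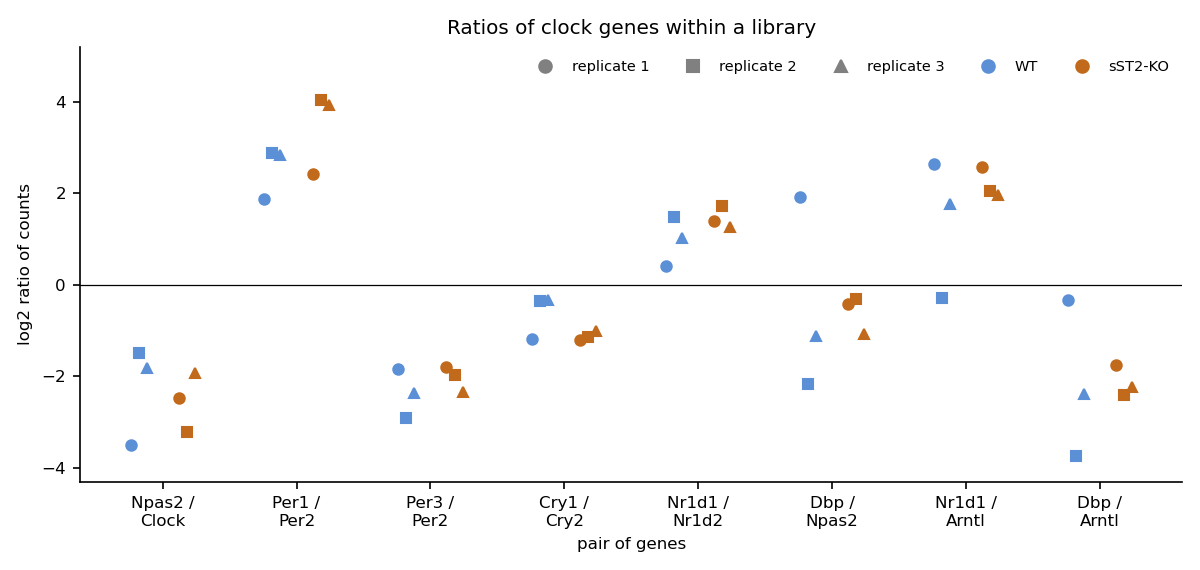
Log2 ratio of the counts of 2 clock genes in the same library (y axis) for 8 pairs (x axis), in 3 WT mice (blue) and 3 sST2-KO mice (orange) with a symbol for each replicate. For Dbp/Npas2, Nr1d1/Arntl and Dbp/Arntl the WT mice span 4.08, 2.92 and 3.40 on the log2 scale and enclose the sST2-KO mice, which span 0.76, 0.61 and 0.66.

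Of 45 other genes of the clock that were tested, 5 were called, where 19.6% of all genes tested were called in either direction. Among 11 other loop genes, Bhlhe40, a repressor that competes at E-boxes, was the only call by edgeR, where DESeq2 called Bhlhe40 higher and Arntl lower. Bhlhe40 had 25.8, 36.9 and 24.0 CPM in WT and 85.5, 167 and 123.1 CPM in sST2-KO mice, with no overlap. Its rise was 4.32-fold (2.11 on the log2 scale, standard error 0.30, adjusted p = 0.0133). This call was lost without WT replicate 3 (adjusted p = 0.0615), and the adjusted p ranged from 3.27e-08 to 0.0644 over the alternatives. Arntl, which encodes BMAL1, had 23.3, 53.2 and 39.7 CPM in WT and 19.9, 21.1 and 20.2 CPM in sST2-KO mice. Each sST2-KO value of Arntl lay below all WT values, and the difference was -0.93 on the log2 scale (standard error 0.29, adjusted p = 0.0630). Its adjusted p was 0.0264 with DESeq2 and 0.0269 without WT replicate 1, over a range from 0.0264 to 0.182. Tef had 159, 45.6 and 103 CPM in WT and 98.8, 45.0 and 40.6 CPM in sST2-KO mice, and Nfil3 had 55.8, 226 and 119.7 CPM and 97.6, 225 and 196 CPM. The adjusted p of these genes was 0.329 for Tef and 0.645 for Nfil3. The median log2 fold change of the 11 loop genes was 0.15.

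None of the tested genes for clock kinases, ubiquitin ligases and partners was called, where 19.6% of all genes tested were called in either direction. Of the 15 listed, 14 were tested (all but Fbxl21, which was below the filter) and 0 were called by edgeR's quasi-likelihood test. Of the 14, 0 had an unadjusted p under 0.05, and the median log2 fold change was 0.14. DESeq2 also called 0 of them, with 1 under 0.05 unadjusted. The output genes of many tissues had 2 calls among 10, both lower, beside 9.1% called lower over all genes, and a median of -0.39. Por, the electron donor of cytochrome P450 enzymes, had 327, 471 and 476.5 CPM in WT and 119, 169.5 and 119 CPM in sST2-KO mice. Its log2 fold change was -1.65 (adjusted p = 0.0141). Gys2, a glycogen synthase that adipocytes and liver use, had 59.0, 31.0 and 76.6 CPM in WT and 1.53, 1.31 and 0.296 CPM in sST2-KO mice. Its log2 fold change was -5.69 (adjusted p = 0.0090). Neither gene's groups overlapped. The same held in this list for Wee1 (higher) and Nampt (lower), which were not called, and for 41.5% of all genes tested. Among 10 genes that answer to cAMP, glucocorticoids or temperature, 2 were higher and 0 lower by edgeR, beside 10.5% and 9.1% over all genes, and the median was 0.23. With lists this short, these counts are near the shares over all genes. DESeq2 called 2 higher and 2 lower of these genes, the lower ones being Crem and Zbtb16. By edgeR, the log2 fold change was -0.787 for Crem (adjusted p = 0.0713) and -0.861 for Zbtb16 (adjusted p = 0.0554). For both, every sST2-KO value lay below all WT values. The other 8 genes of this list were higher in sign. Fos, an immediate early gene, had 27.6, 27.3 and 9.86 CPM in WT and 122, 75.5 and 270.0 CPM in sST2-KO mice, a rise of 2.85 on the log2 scale (adjusted p = 0.0189). Rbm3, an RNA-binding protein that is induced by a lower body temperature, had 137, 127 and 118 CPM in WT and 238, 204 and 239 CPM in sST2-KO mice. This was a rise of 0.84 on the log2 scale (standard error 0.18, adjusted p = 0.0232). Cirbp, another RNA-binding protein gene of this list, was not called and its groups overlapped (log2 fold change 0.34, adjusted p = 0.441). It had 39.6, 43.7 and 57.0 CPM in WT and 86.0, 43.2 and 48.4 CPM in sST2-KO mice. With 1 library left out, the call of Fos was lost without WT replicate 2 or 3, that of Rbm3 without these or sST2-KO replicate 3, and that of Por without WT replicate 3.

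The genes whose levels over the 6 libraries were most like those of 2 members were found by Pearson correlation of log2 CPM among 11619 genes, as a description. Dbp was most like Mir3064 (r = 0.98), Fpgt, Fbxo30, Pura and Zfp950 (lowest r = 0.98), which like Dbp were highest in WT replicate 1. Npas2 was most like Tom1 (r = 0.97), Cdc34, Sap18b, Serf1 and Adipor1, all lower in WT replicate 1 than in the other WT mice. The 6 libraries share a comparison of 2 groups, and with so few of them high values of r arise among many genes.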

How the data were processed

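BAT from 3 WT and 3 sST2-KO mice was profiled by RNA-seq. The authors made libraries of poly-A RNA, read them as 150 bp pairs, checked the reads with FastQC 0.12.1 and aligned them to mm39 (the GRCm39 assembly) with HISAT2 2.2.1, by the submitters' processing notes, and counted them with htseq-count. The version of htseq-count, its annotation and its use of strand are not given in the sources used here. The deposited table holds raw counts per gene symbol, and every column of per-sample values was used. Groups and replicate numbers come from the sample titles.

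The counts were compared in edgeR 4.0.16 (R 4.3.3). filterByExpr kept 14542 of 35976 genes, among them all 10 members, and TMM factors ran from 0.825 to 1.14. The quasi-likelihood test had no covariate, p values were adjusted over all genes tested (Benjamini-Hochberg), and a gene was called when its adjusted p was under 0.05. Standard errors are the log2 fold change over the square root of F, and 95% intervals use the degrees of freedom of the test. DESeq2, which the study's methods name, served as an alternative (1.42.0), as did RLE, upper-quartile and total-count scaling, no filter, a minimum of 10 counts per sample, robust fitting, a block for the replicate number and the removal of each library. For ratios within a library, 0.5 was added to both counts. The edgeR fit and the DESeq2 fit were tried on simulated counts with a common dispersion for all genes, and the other steps were not. Chi-square per degree of freedom between libraries of the same group was 36.7 to 104, far from that of copies. The labels do not say which mice were housed or handled together. The quasi-likelihood p values set the difference between the groups against the variation among these mice, moderated over genes.

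The members and lists were chosen with earlier results of these data known. The genes named are all 10 members and, from lists of other clock genes, those called or those that a sentence turns on. Positions are from GENCODE vM39 on GRCm39, and promoters are from RefSeq's GRCm38.p6 table.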

Additional observations from a re-analysis of the deposited data

How the results depend on the processing

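The median log2 fold change of the members, -0.44, was negative in all 14 alternatives and its range over removals of single libraries was -0.80 to -0.23, the lowest being without sST2-KO replicate 1. The count of members called stayed at 0 except without WT replicate 1, where it was 1 (range 0 to 1). Per3 turned positive with total counts (0.046), without WT replicate 1 (0.48) and without sST2-KO replicate 3 (0.16), and lay between -0.995 and 0.48 over such removals. Nr1d1 turned positive with total counts (0.077) and ranged from -0.56 to 0.078. Cry2 turned positive with total counts (0.25), upper-quartile factors (0.047), no filter (0.0068) and at least 10 counts in every sample (0.026), and ranged from -0.21 to 0.12. Nfil3 ranged from -0.0080 to 0.97. The other 7 members kept their sign throughout. Total counts moved the median of all genes from 0.034 to 0.29, and their calls from 1524 higher and 1323 lower to 2181 and 891.

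Over removals of single libraries, calls over all genes ranged from 58 to 2520 (higher from 36 to 1502, lower from 22 to 1189). The lowest counts were without WT replicate 3, and those without WT replicate 2 (876) and without sST2-KO replicate 3 (1416) also moved by over 1.5 times. The other clock genes called ranged from 1 to 8 and were 8 with DESeq2. Under a replicate block, 0 genes were called over all, 0 higher, 0 lower and 0 of the other clock genes. That fit leaves 2 residual degrees of freedom, and same-numbered mice were not shown to be pairs (correlations -0.058, 0.21 and -0.31). The block changed no call of a member, and the 5 other clock genes called lost their calls under it, with adjusted p of 0.0644 for Bhlhe40, Por and Gys2, 0.0849 for Fos and 0.0774 for Rbm3.

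Over the same removals, the differences in log2 ratio ranged from -0.008 to 1.45 for Nr1d1/Arntl, from -0.77 to 0.93 for Dbp/Arntl, from -1.01 to 1.03 for Dbp/Npas2 and from -0.88 to 0.12 for Npas2/Clock, and the other 4 pairs kept their sign. Lengths of the longest transcript in place of the union of exons raised the WT level per kb of every member, by more than 1.5 times for Cry2 (10.1), Clock (5.49), Dbp (5.28), Per3 (1.43) and Nr1d2 (11.2), and to 34.3 for Per1, 37.7 for Nr1d1, 7.38 for Cry1, 6.41 for Per2 and 2.95 for Npas2. The causes of these changes were not tested. With at least 10 counts in every sample, Rorb and Gys2 were not tested and have no value. Depth limits Npas2, Per3 and Dbp most, which had as few as 41, 33 and 33 counts in a library.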
